A study of Homo sapiens with 8 samples.

Results

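The collagen genes were the genes of the deposited table whose symbol, looked up from the Entrez identifier, began with COL and carried a chain number (COL1A1, COL12A1 and so on). They numbered 44 of 28395 genes, and 23 of them were abundant enough to test. They were followed in 8 RNA-seq libraries of A-498, a long-established line of human renal carcinoma cells, in a study of how loss of ANXA4 (annexin A4, a calcium-dependent phospholipid-binding protein) alters the transcriptome. All 4 lines derived from A-498 and all carried a single guide RNA (sgRNA) for CRISPR editing, and each line gave 2 libraries, replicates 1 and 2. Control line 1 and control line 2 were labelled wild type control and carried non-targeting sgRNA-1 and non-targeting sgRNA-2. The other two lines were labelled ANXA4 KO (knockout) and carried 1 guide against ANXA4 each. They are called KO-labelled line 1 and KO-labelled line 2 after the number of their guide. Every line was seeded at equal cell number and grown below confluence for 24 hours, with no further treatment. Each guide was thus represented by 1 line, so guide and line cannot be told apart. Nothing in the labels says whether the replicates of a line were separate cultures, and the p-values therefore measure only the spread between these libraries.

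Collagens are secreted or membrane-bound proteins whose alpha chains wind around one another into a stiff helix and assemble outside the cell into fibrils, networks and filaments. Fibrillar collagens (types I, II, III, V, XI, XXIV and XXVII) build cable-like fibrils, basement membrane collagens (types IV, XV and XVIII) build and decorate the sheet under epithelia, and FACIT collagens, the fibril-associated ones, coat fibrils. Types VI, VII, VIII and X form microfilaments, anchoring fibrils and networks, and the transmembrane collagens (types XIII, XVII, XXIII and XXV) are held at the cell surface. Kidney tubule cells rest on a type IV collagen basement membrane, and renal carcinomas grow in a matrix that contains collagen.

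ANXA4 reads were low in KO-labelled line 1 and within the control range in KO-labelled line 2. Reads do not measure protein, so they cannot say whether either line lost the ANXA4 protein. The normalised read count of ANXA4 was 2821 to 6773 in the 4 control libraries and 236 and 234 in KO-labelled line 1. In KO-labelled line 2 it was 3433 and 4142, with a log2 change against both controls of -0.10 (SE 0.22, limma adjusted p = 0.818). Depth was 15784890 to 22631588 reads per library. Mitochondrial transcripts took 4.67% to 9.05% of the reads in 7 libraries and 13.8% in replicate 2 of KO-labelled line 2. Values are read counts per gene divided by 1 size factor per library, called normalised read counts here, and a log2 change is the difference of mean log2(value + 1). A gene was called where the adjusted p of the fit over all 14040 tested genes was under 0.05. For 10 kidney tubule and A-498 markers the summed value was 94107 to 120755 in control and 86858 to 130272 in KO-labelled libraries. VIM and KRT8 carried most of this sum, so it does not establish the identity of the cells. Of 6 fibroblast markers 4 stayed under 10 in every library and LUM was at 0. All 4 endothelial markers stayed under 10 with CDH5 at 0. Of 3 leukocyte markers CD3E was at 0 and CD68, a lysosomal protein of macrophages, ran from 1784 to 4263 in control and from 3131 to 4409 in KO-labelled libraries, while the other one stayed under 10. The kidney list was not even. VIM, the most abundant of its 10 genes, ran from 37386 to 83227. PAX8 ran from 2987 to 4476, CDH16 from 29.4 to 131 and CA9 from 2.07 to 24.8. The epithelial keratins KRT8 and KRT18 were higher in every KO-labelled than in every control library (KRT8 24452 to 31461 against 16747 to 20381, KRT18 11228 to 13291 against 6032 to 9955). The annotation has these genes overlap on opposite strands, so their counts are uncertain if strand was not used. Between the arms neither keratin was called (limma adjusted p = 0.191 and 0.271). KRT8, KRT18 and CDH16, a kidney cadherin, were called higher in KO-labelled line 2 (log2 changes 0.64, 0.66 and 1.48, limma adjusted p = 0.0214, 0.0224 and 0.00989). With 1 library left out these calls were lost in 4, 4 and 1 of 8 fits. The replicate block also called KRT8 and KRT18 higher and VIM lower in KO-labelled line 1 (limma adjusted p = 0.00495, 0.00666 and 0.00149). The part of these markers in the collagen values was not tested.

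The upstream sequences of the collagens on which the results turn are shown first, as the context of these genes. Sequences are the 250 bases before the annotated start in RefSeq GRCh38.p14, 5′ to 3′ on the gene's strand, with GGGCGG or its complement CCGCCC (the GC box core), TATAAA or TTTATA and CCAAT or ATTGG in capitals. COL12A1 is shown because it was the collagen called between the 2 arms, and COL5A1 and COL13A1 because their adjusted p in that comparison was the next smallest among collagens. The stretch between COL4A1 and COL4A2 is shown because these genes start head to head and share it. It is 126 bases long and is written on the plus strand.
COL12A1, chr6:75206054-75206303, minus strand: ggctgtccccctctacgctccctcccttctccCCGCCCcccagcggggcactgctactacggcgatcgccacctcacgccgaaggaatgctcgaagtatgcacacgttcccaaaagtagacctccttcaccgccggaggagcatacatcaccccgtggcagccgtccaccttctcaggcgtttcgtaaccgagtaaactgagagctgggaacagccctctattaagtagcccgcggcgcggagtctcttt
COL5A1, chr9:134641553-134641802, plus strand: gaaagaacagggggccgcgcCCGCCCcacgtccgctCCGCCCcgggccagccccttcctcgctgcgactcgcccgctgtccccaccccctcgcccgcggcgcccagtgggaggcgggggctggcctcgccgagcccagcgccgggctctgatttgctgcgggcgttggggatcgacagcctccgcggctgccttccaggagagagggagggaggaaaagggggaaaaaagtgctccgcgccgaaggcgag
COL13A1, chr10:69801656-69801905, plus strand: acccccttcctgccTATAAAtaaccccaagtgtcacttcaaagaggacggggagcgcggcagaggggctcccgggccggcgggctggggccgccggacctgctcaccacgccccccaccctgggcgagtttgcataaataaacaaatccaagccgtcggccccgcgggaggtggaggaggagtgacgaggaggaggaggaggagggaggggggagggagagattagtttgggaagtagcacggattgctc
COL4A1 to COL4A2, chr13:110307158-110307283: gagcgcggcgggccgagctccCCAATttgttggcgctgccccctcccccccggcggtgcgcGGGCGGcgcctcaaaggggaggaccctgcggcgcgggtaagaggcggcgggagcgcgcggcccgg
The COL12A1 window held 1 GC box core, the COL5A1 window 2 and the COL13A1 window none, while a TATAAA stood only in that of COL13A1 among these 4. The COL4A1 to COL4A2 stretch held 1 GC box core and 1 CCAAT, with a GC content of 80.2%. Of the 44 collagens 32 had a promoter entry, and 18 of the 32 held a GC box core, 5 a TATAAA and 9 a CCAAT. Over 27305 genes the same motifs, on either strand of a 250-base window, were in 42.3%, 11.1% and 33.04%, and the 3 motifs share no letters that would make 1 match imply another. A match describes letters in a window and does not mark a used site.

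A-498 cells expressed collagen mainly as type VI, type V, type IV and type XVIII chains. Per kilobase of exon, COL6A2 led the controls with a mean normalised read count of 1556 per kb, followed by COL5A1 with 1333, COL6A1 with 1164, COL4A2 with 689, COL18A1 with 688, COL7A1 with 530 and COL4A1 with 525. COL8A1 (211), COL12A1 (193) and COL27A1 (162) came next on the same scale. Some major chains of connective tissue fibrils were barely detected, although COL1A1 had normalised read counts of 548 to 1408 in control libraries. COL1A2, COL2A1 and COL3A1 had at most 3 reads in every library, and COL1A2, the usual partner of the COL1A1 chain in type I collagen, had at most 1. Altogether 14 of the 21 collagens under the filter never exceeded 3 reads in a library, and the highest normalised read count among all 21 was 15.6, for COL28A1. COL9A1 and COL19A1 had 0 reads in all 8 libraries, which allows up to 3 reads, or 0.190 reads per 1000000 at the lowest depth. Outside the fit with no filter, these 21 collagens enter no count of tested or called collagens below. They are included in the read shares and sums over all 44 collagens. All 23 tested collagens reached 10 in 2 or more KO-labelled libraries, and all but COL24A1 did so in 2 or more control libraries, so none entered the test through a high control level alone.

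The collagen share of the transcriptome was lower in every KO-labelled library than in every control library. Of all reads in replicates 1 and 2, collagens made up 0.397% and 0.439% for control line 1, and 0.348% and 0.400% for control line 2. They made up 0.256% and 0.279% in KO-labelled line 1 and 0.240% and 0.245% in KO-labelled line 2. Summed per kilobase, the 44 collagens came to 7326 ± 1040 (SD, n = 4) in the controls and 4813 ± 293 (SD, n = 4) in the KO-labelled libraries, and the plot of stacked levels shows the same gap for each library. The makeup of that sum also differed. COL5A1 supplied 18.2% of it in controls and 10.2% in KO-labelled libraries, COL12A1 2.66% and 1.26%, and COL18A1 9.38% and 17.8%. In these bulk libraries fewer cells expressing a gene and less RNA per cell cannot be told apart. Summed fibroblast markers were 44.2 to 2094 in control and 78.8 to 477 in KO-labelled libraries, carried by POSTN (periostin, a matrix protein), and their part in the collagen values was not tested.

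**Figure D1:**
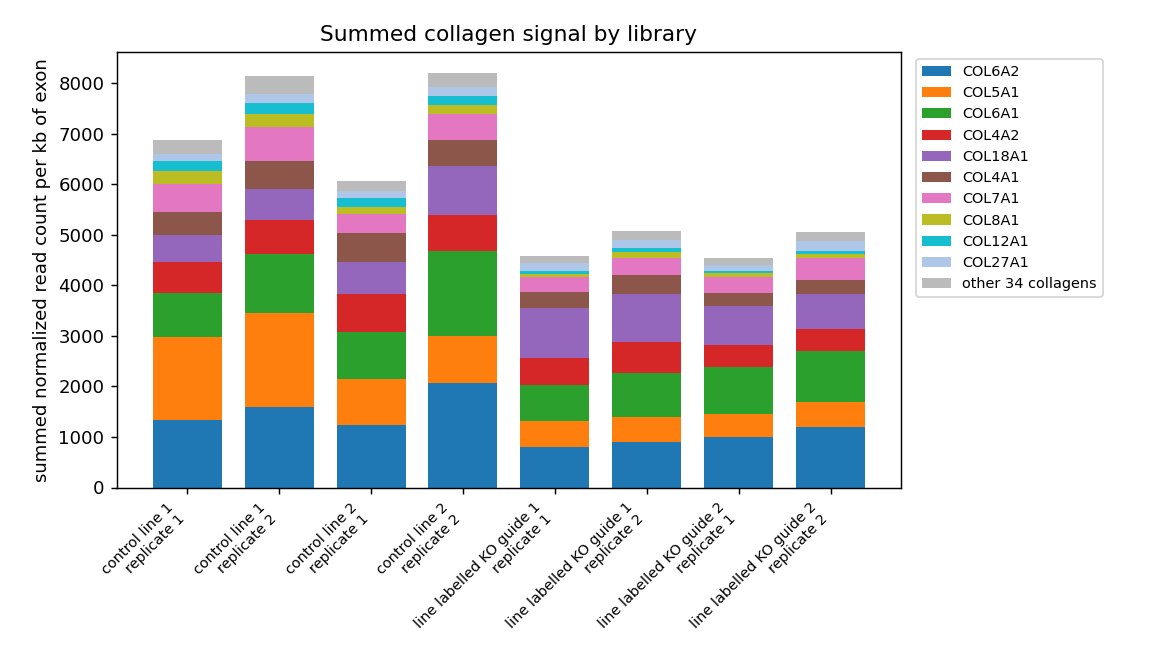
Stacked normalised read counts of the collagen genes per kilobase of exon (vertical axis) in each of the 8 libraries (horizontal axis), with the most abundant chains coloured separately. The control libraries reach 6066 to 8208 and the KO-labelled libraries 4536 to 5068.

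Across the 23 tested collagens 1 was called between the KO-labelled and control lines, COL12A1, which fell. That is 1 of 23, beside 0.235% of all tested genes called in either direction and 0.107% called lower. An unadjusted limma p under 0.05 was found for 11 of the 23, all below 0. The share of all genes with such a p is not given here. This count, and the counts of unadjusted p below, therefore cannot be read against a background. The log2 change was below 0 for 19 of the 23, with a median of -0.54, while over all 14040 genes the median was 0.00 and 49.9% were below 0. By type, all 6 fibrillar members were below 0 with a median of -0.88, as were all 5 microfibril, network and anchoring members (median -0.66) and both transmembrane members (median -1.11). The basement membrane members were split, 4 below 0 and 2 above with a median of -0.12, and so were the 4 FACIT members, 2 below and 2 above with a median of -0.19. In 9 of the 23 every KO-labelled library lay below every control library, and in none did every KO-labelled library lie above. Over all tested genes these patterns held for 5.51% and 5.11%. The 9 were COL1A1, COL4A1, COL5A1, COL5A3, COL6A2, COL6A3, COL8A1, COL12A1 and COL13A1. Chain genes were also compared on replicates 1 alone, where 18 of 23 were below 0 (median -0.59), and on replicates 2 alone, where 16 were (median -0.51). Other tests called more collagens in this comparison. With the replicate number as a block limma called 2 (COL12A1 and COL13A1, with 0.264% of all genes called). The quasi-likelihood test of edgeR on the recovered reads called 5 (1.33%) and DESeq2 11 (6.04%). Both had no line term here and treat the libraries of a line as independent. Limma with 1 mean per line, tested against the spread between replicates of a line, called 11 (10.5%). That fit leaves out the spread between lines of an arm.

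**Figure D2:**
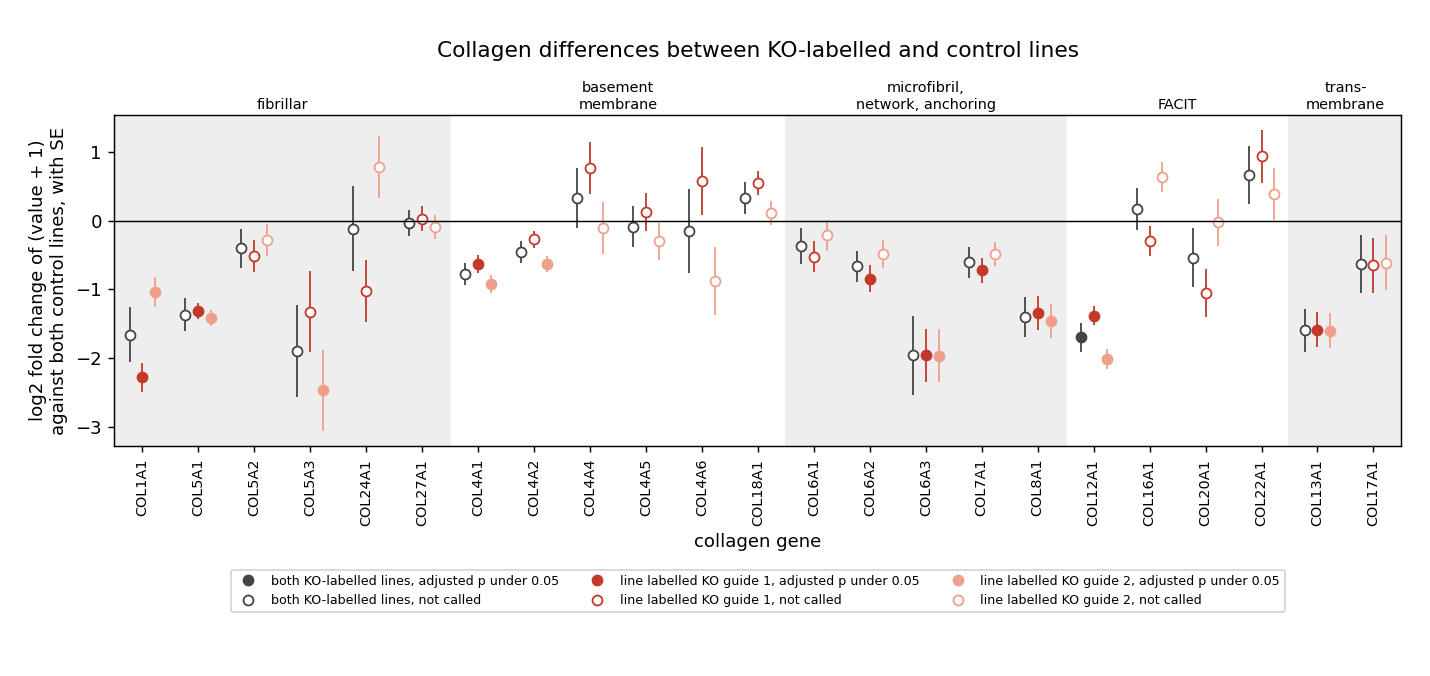
Log2 change against both control lines (vertical axis, bars are standard errors) of the 23 tested collagens (horizontal axis, grouped by type), for both KO-labelled lines together and for the lines labelled KO guide 1 and KO guide 2 alone. Filled points have a limma adjusted p under 0.05, and the filled point for both lines together is COL12A1 at -1.70.

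COL12A1, the FACIT collagen that coats type I fibrils, fell in both KO-labelled lines. Control line 1 had normalised read counts of 2323 and 2873 and control line 2 of 2210 and 2243, against 860 and 985 in KO-labelled line 1 and 526 and 670 in KO-labelled line 2. All 4 KO-labelled libraries lay far below the lowest control. KO-labelled line 2, whose ANXA4 reads were within the control range, had the lowest COL12A1. The relation of COL12A1 to ANXA4 was not tested. The means were 2412 ± 310 (SD, n = 4) in controls and 760 ± 203 (SD, n = 4) in KO-labelled libraries, a log2 change of -1.70 (SE 0.21) and a 3.24-fold difference on that scale (limma adjusted p = 0.0121). It fell by 1.38 on the log2 scale in KO-labelled line 1 (SE 0.14, limma adjusted p = 0.00159) and by 2.01 in KO-labelled line 2 (SE 0.14, limma adjusted p = 0.000239). With 1 library left out its log2 change ran from -1.81 to -1.58 between the arms. It ran from -1.48 to -1.28 in KO-labelled line 1 and from -2.19 to -1.84 in KO-labelled line 2. A two-sided exact permutation test of the 4 against 4 libraries gave p = 0.0286, the smallest that 70 arrangements allow, and permuting within replicate numbers gave p = 0.0556, the smallest of 36 arrangements. Libraries of 1 line are not independent, and each arm held only 2 lines. With the line as the unit the exact permutation test gave p = 0.333, the smallest that 6 arrangements allow. Arms that do not overlap fix each of these exact p at its smallest, so they add nothing to that separation. COL12A1, like the other collagens, was chosen with earlier results of these data known. The 2 lines labelled KO differed by -0.63 (line 2 minus line 1, limma adjusted p = 0.0570), and with the replicate block that difference was called (limma adjusted p = 0.00239).

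The other tested FACIT collagens did not follow COL12A1. COL22A1, a collagen of tissue junctions, had normalised read counts of 90.1 to 252 in control and 177 to 324 in KO-labelled libraries, and its log2 change was 0.66 (SE 0.42, limma adjusted p = 0.620). COL16A1, a minor fibril- and microfibril-associated collagen, ran from 74.5 to 109 in control and from 69.5 to 164 in KO-labelled libraries with a log2 change of 0.17 (limma adjusted p = 0.906). Its highest values, 116 and 164, were both in KO-labelled line 2. COL20A1 was low everywhere, between 7.26 and 25.4 (log2 change -0.54, limma adjusted p = 0.707). For each of these 3 the KO-labelled and control ranges overlapped. With the replicate block, COL22A1 rose (limma adjusted p = 0.00735) and COL20A1 fell (limma adjusted p = 0.0449) in KO-labelled line 1, and COL16A1 rose in KO-labelled line 2 (limma adjusted p = 0.0212).

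**Figure D3:**
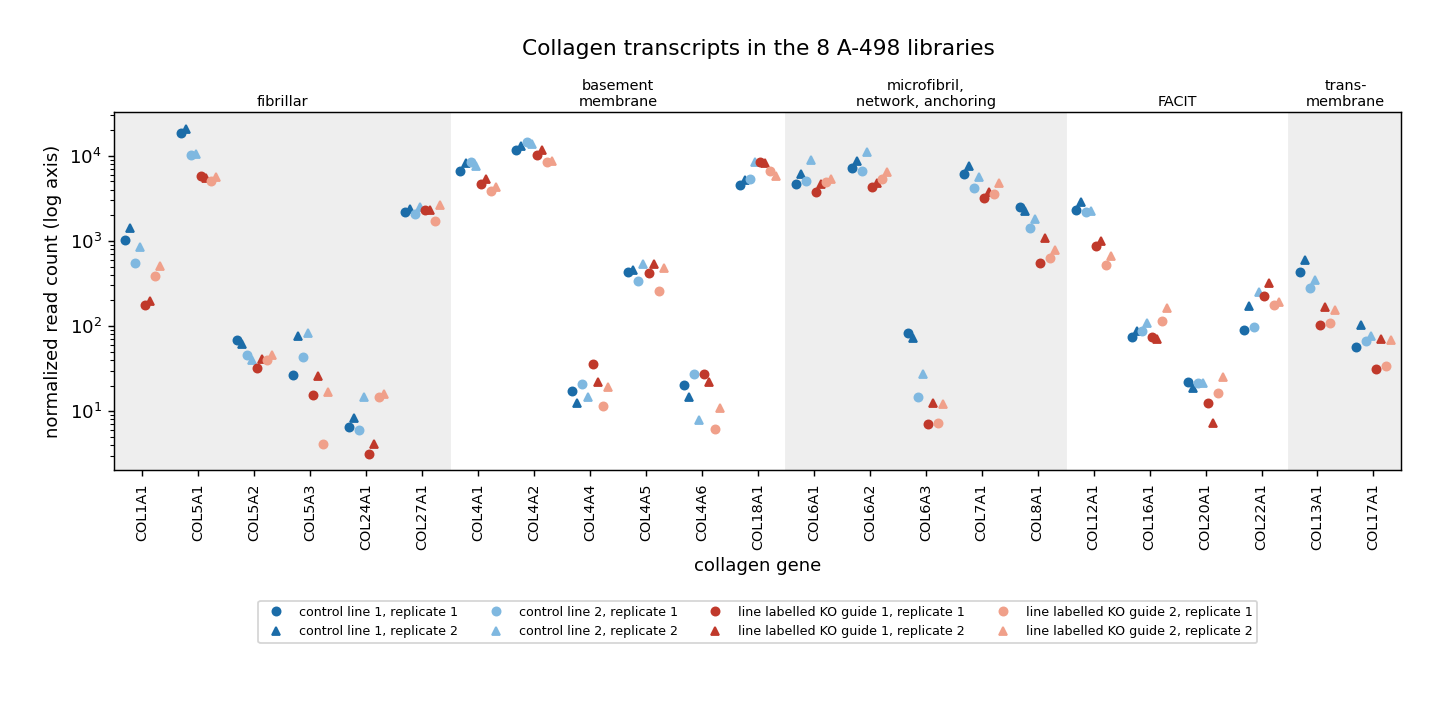
Normalised read counts (vertical log axis) of the 23 tested collagens (horizontal axis, grouped by type), 1 point per library, coloured by line and shaped by replicate. For COL12A1 the libraries of the lines labelled KO lie between 526 and 985 and the control libraries between 2210 and 2873.

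Among fibrillar collagens COL1A1 and COL5A1 fell in each KO-labelled line. COL5A1, the type V chain that seeds and limits the width of type I fibrils, reached 18316 and 20845 normalised read counts in control line 1, 10092 and 10403 in control line 2, 5836 and 5498 in KO-labelled line 1 and 5057 and 5559 in KO-labelled line 2. The arms did not overlap, but the controls themselves stood apart. Its log2 change was -1.32 in KO-labelled line 1 (SE 0.12, limma adjusted p = 0.000762) and -1.42 in KO-labelled line 2 (SE 0.12, limma adjusted p = 0.000427), and both calls held whichever library was left out. Over both lines it was -1.37 (SE 0.24, limma adjusted p = 0.0532). Between the controls COL5A1 was lower in control line 2 by a log2 of -0.93 (SE 0.13, limma adjusted p = 0.0145), a call lost without any 1 of the 4 control libraries (limma adjusted p = 0.0715 to 0.167). COL5A1 lies on chromosome 9, whose genes had a median log2 change of -0.19 between the arms.

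COL1A1 gave 1027 and 1408 normalised read counts in control line 1, 548 and 851 in control line 2, 177 and 195 in KO-labelled line 1 and 383 and 511 in KO-labelled line 2. The highest KO-labelled library was just below the lowest control, and the KO-labelled lines did not overlap each other. COL1A1 fell by 2.28 on the log2 scale in KO-labelled line 1 (SE 0.22, limma adjusted p = 0.000968). In KO-labelled line 2 it fell by 1.03 (SE 0.22, limma adjusted p = 0.0180), a call lost without replicate 2 of control line 1 (limma adjusted p = 0.0602) or replicate 1 of that KO-labelled line (0.0966). The change differed between the KO-labelled lines by 1.25 (SE 0.25, limma adjusted p = 0.0251), and this was the collagen called between them. That call was lost without either replicate of KO-labelled line 1 or without replicate 2 of the other (limma adjusted p = 0.103 to 0.145). Taking both lines, its log2 change was -1.66 (SE 0.39, limma adjusted p = 0.133).

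The remaining fibrillar members were less abundant, COL27A1 apart. COL5A3, a type V chain of restricted expression, had normalised read counts of 26.7 and 75.9, then 43.0 and 83.8 in the control lines, 15.7 and 25.9 in KO-labelled line 1 and 4.14 and 16.9 in KO-labelled line 2. The arms just failed to overlap. It fell in KO-labelled line 2 (log2 change -2.47, SE 0.59, limma adjusted p = 0.0306), but the call was lost without replicate 2 of either control line, either replicate of KO-labelled line 1 or replicate 1 of KO-labelled line 2 (limma adjusted p = 0.0513 to 0.154), and an antisense gene overlaps its exons. For KO-labelled line 1 its log2 change was -1.33 (limma adjusted p = 0.216), which the replicate block called (limma adjusted p = 0.00765). The log2 change of COL5A3 over both lines was -1.90, which limma did not call. COL5A2, the partner chain of COL5A1, ran from 39.7 to 69.0 in control and from 32.1 to 45.9 in KO-labelled libraries (log2 change -0.40, limma adjusted p = 0.656). COL27A1, a cartilage-type fibrillar collagen, ran from 2046 to 2493 and from 1694 to 2651 (log2 change -0.03, limma adjusted p = 0.973). COL24A1 stayed between 3.13 and 15.7 (log2 change -0.12, limma adjusted p = 0.969). These 3 overlapped between the arms. Per kilobase, the ratio of COL5A1 to COL5A2 was 147 to 226 in controls and 80.7 to 121 in KO-labelled libraries, without overlap, a difference that was not tested. That of COL5A1 to COL5A3 overlapped, at 74.9 to 414 in controls and 128 to 737 in KO-labelled libraries. How often the ratio of a pair of genes separates the arms over all genes was not counted.

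Among basement membrane collagens COL4A1 was called lower in both KO-labelled lines, COL4A2 in KO-labelled line 2 and COL18A1 in neither. Limma called none of them between the arms. COL4A1, the alpha 1 chain of the common type IV network, gave 6703 and 8170 normalised read counts in control line 1, 8416 and 7678 in control line 2, 4626 and 5359 in KO-labelled line 1 and 3856 and 4325 in KO-labelled line 2. Every KO-labelled library was below every control. It fell by 0.92 on the log2 scale in KO-labelled line 2 (SE 0.13, limma adjusted p = 0.00423), a call that held in all 8 fits that left out 1 library. In KO-labelled line 1 it fell by 0.63 (SE 0.13, limma adjusted p = 0.0273), but that call was lost in 4 of the 8 fits, those without replicate 2 of control line 1, replicate 1 of control line 2 or either replicate of the KO-labelled line (limma adjusted p = 0.0513 to 0.234). Over both lines its log2 change was -0.77 (SE 0.16, limma adjusted p = 0.0958).

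COL4A2, its head-to-head neighbour and partner chain, gave 11668 and 13134 in control line 1, 14626 and 13734 in control line 2, 10226 and 11765 in KO-labelled line 1 and 8468 and 8641 in KO-labelled line 2. Only KO-labelled line 2 lay wholly below the controls, where COL4A2 fell by 0.63 (SE 0.12, limma adjusted p = 0.0136). That call was lost without replicate 2 of control line 1 (limma adjusted p = 0.0546) or replicate 1 of KO-labelled line 2 (0.0537). In KO-labelled line 1 the log2 change was -0.27 (limma adjusted p = 0.217). For both lines together it was -0.45 (SE 0.16, limma adjusted p = 0.307), and the arms overlapped. The per-kilobase ratio of COL4A2 to COL4A1 was 1.23 to 1.37 in control and 1.53 to 1.69 in KO-labelled libraries. These ranges do not overlap, although the genes share the 126-base stretch printed above, and the difference of the ratio was not tested. Antisense genes COL4A2-AS1 and COL4A2-AS2 overlap exons of COL4A2, so its count is uncertain if strand was not used.

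COL18A1, the heparan sulfate-bearing collagen whose end fragment is endostatin, went the other way in values. Its normalised read counts were 4588 and 5198, then 5327 and 8338 in the control lines, 8518 and 8201 in KO-labelled line 1 and 6563 and 5792 in KO-labelled line 2. One control library, replicate 2 of control line 2, sat among KO-labelled line 1, and the arms overlapped. The log2 change was 0.33 over both lines (SE 0.23, limma adjusted p = 0.651) and 0.55 in KO-labelled line 1 (limma adjusted p = 0.0984), where the replicate block called it (limma adjusted p = 0.0145). SLC19A1 overlaps its exons on the other strand. COL4A5, of the type IV network of the kidney filter, ran from 334 to 530 in control and from 255 to 531 in KO-labelled libraries (log2 change -0.09, limma adjusted p = 0.954). COL4A4 (11.4 to 36.01) and COL4A6 (6.21 to 27.5) were near the filter, with log2 changes of 0.33 and -0.15 (limma adjusted p = 0.854 and 0.959). Ranges of the arms overlapped for all 3.

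Of the network, anchoring and microfibril collagens COL8A1 and COL6A3 fell in each KO-labelled line. COL8A1, a short-chain network collagen, gave 2472 and 2271 normalised read counts in control line 1, 1404 and 1793 in control line 2, 545 and 1077 in KO-labelled line 1 and 636 and 777 in KO-labelled line 2. The arms did not overlap. It fell by 1.46 in KO-labelled line 2 (SE 0.25, limma adjusted p = 0.00779), in all 8 fits that left out 1 library. In KO-labelled line 1 it fell by 1.34 (SE 0.25, limma adjusted p = 0.0170), a call lost without either replicate of control line 1 or without replicate 1 of the KO-labelled line (limma adjusted p = 0.0556 to 0.110). Over both lines the log2 change was -1.40 (SE 0.29, limma adjusted p = 0.0958). COL8A1 and COL7A1 lie on chromosome 3, whose genes had a median log2 change of -0.35 between the arms, and what part this had in their values was not tested.

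COL7A1, the collagen of anchoring fibrils, gave 6171 and 7597 in control line 1, 4128 and 5574 in control line 2, 3203 and 3748 in KO-labelled line 1 and 3513 and 4766 in KO-labelled line 2. One KO-labelled library exceeded the lowest control. It fell in KO-labelled line 1 (log2 change -0.73, SE 0.18, limma adjusted p = 0.0466), a call lost without either replicate of control line 1, replicate 2 of control line 2 or either replicate of that line (limma adjusted p = 0.0786 to 0.300). In KO-labelled line 2 the log2 change was -0.49 (limma adjusted p = 0.122, and 0.00226 with the replicate block). For both lines together it was -0.61, which limma did not call.

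Type VI collagen, which forms beaded filaments around cells from 3 chains, showed unequal chains. COL6A2 gave 7176 and 8571 in control line 1, 6671 and 11095 in control line 2, 4331 and 4831 in KO-labelled line 1 and 5382 and 6417 in KO-labelled line 2. The arms did not overlap, though the top KO-labelled value was near the lowest control. It fell in KO-labelled line 1 (log2 change -0.84, SE 0.20, limma adjusted p = 0.0410), a call lost without either replicate of control line 1 or of that KO-labelled line (limma adjusted p = 0.0792 to 0.257). In KO-labelled line 2 its log2 change was -0.48 (limma adjusted p = 0.162, and 0.00979 with the replicate block). The log2 change of COL6A2 over both lines was -0.66, which limma did not call. COL6A1, the neighbouring gene on chromosome 21, ran from 4706 to 8984 in control and from 3747 to 5380 in KO-labelled libraries, with overlap (log2 change -0.37, limma adjusted p = 0.650). The replicate block called it lower in KO-labelled line 1 (limma adjusted p = 0.0114). Per kilobase, the ratio of COL6A2 to COL6A1 was 1.23 to 1.51 in control and 1.03 to 1.18 in KO-labelled libraries, again without overlap and not tested. That of COL6A1 to COL6A3 was 209 to 1258 in control and 1379 to 2526.5 in KO-labelled libraries, also not tested.

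COL6A3, the largest chain of that type, was scarce in every line. Its normalised read counts were 82.7 and 71.8 in control line 1, 14.6 and 27.2 in control line 2, 7.05 and 12.4 in KO-labelled line 1 and 7.24 and 12.1 in KO-labelled line 2. The arms did not overlap, and control line 2 was closer to the KO-labelled lines than to control line 1. COL6A3 fell by 1.96 in each KO-labelled line (SE 0.39, limma adjusted p = 0.0227 for KO-labelled line 1 and 0.0147 for KO-labelled line 2). The first call was lost without either replicate of control line 1, replicate 2 of control line 2 or either replicate of KO-labelled line 1 (limma adjusted p up to 0.191). The second was lost without replicate 1 of control line 1 or replicate 1 of KO-labelled line 2 (limma adjusted p up to 0.0775). For both KO-labelled lines together the log2 change was -1.96, which limma did not call. The controls differed by -1.90 (control line 2 minus control line 1, limma adjusted p = 0.0704, and 0.00691 with the replicate block).

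COL13A1 was the transmembrane collagen that fell. A cell-surface collagen of adhesive contacts, it gave 429 and 599 normalised read counts in control line 1, 278 and 343 in control line 2, 103 and 168 in KO-labelled line 1 and 108 and 156 in KO-labelled line 2. The KO-labelled lines coincided and lay below all controls. It fell by 1.58 in KO-labelled line 1 (SE 0.25, limma adjusted p = 0.00962), a call lost without replicate 1 of that line (limma adjusted p = 0.108), and by 1.61 in KO-labelled line 2 (SE 0.25, limma adjusted p = 0.00618), in all 8 fits. Over both lines its log2 change was -1.59 (SE 0.31, limma adjusted p = 0.0753), and the replicate block called it (limma adjusted p = 0.0316). COL17A1, the collagen of hemidesmosomes, ran from 57.0 to 104 in control and from 31.3 to 69.5 in KO-labelled libraries (log2 change -0.63, limma adjusted p = 0.638), with overlap.

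Counted by line, 9 of the 23 tested collagens fell and none rose in KO-labelled line 1, against 3.18% of all genes lower, 3.82% higher and 7.01% in either direction. In KO-labelled line 2 also 9 fell and none rose, against 6.67% lower, 4.54% higher and 11.2% in either direction. The medians were -0.65 and -0.49. Above 0, an unadjusted p under 0.05 was found for 2 and 1 collagens, edgeR called none in either line, and DESeq2 called 1 (COL18A1) for KO-labelled line 1 and none for KO-labelled line 2. Below 0, edgeR and DESeq2 called 9 collagens in each line, with 7.53% and 11% of all genes called by edgeR and 10.2% and 13.1% by DESeq2. Both comparisons share their control libraries. Setting each KO-labelled line against a different control line gave 17 of 23 below 0 for KO-labelled line 1 against control line 1 (median -0.78) and 19 of 23 for KO-labelled line 2 against control line 2 (median -0.55). Exchanging the controls gave 17 of 23 in both pairings (medians -0.68 and -0.59). Leaving out 1 library moved the count for KO-labelled line 1 to 5 without replicate 1 of control line 1, 4 without its replicate 2, 3 without replicate 1 of the KO-labelled line and 5 without its replicate 2. For KO-labelled line 2 the count was 5 without its replicate 1. With the replicate block 14 and 12 collagens were called, when 24.4% and 27.4% of all genes were.

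Lines of the same arm were also compared. Between the controls 1 of 23 collagens was called, COL5A1, lower in control line 2, beside 1.08% of all genes called lower and 2.13% in either direction. The median was -0.00 with 12 of 23 below 0. Between the KO-labelled lines 1 was called, COL1A1, higher for KO-labelled line 2, beside 2.41% of all genes called higher and 6.94% in either direction, with a median of -0.10. With the replicate block 5 collagens were called between the controls and 6 between the KO-labelled lines (12.5% and 24.5% of all genes). Those added between the controls were COL1A1, COL6A3, COL7A1 and COL13A1, all lower in control line 2 (limma adjusted p = 0.00294 to 0.0109). Those added between the KO-labelled lines were COL4A2, COL5A3 and COL12A1, lower for KO-labelled line 2, and COL16A1 and COL24A1, higher for KO-labelled line 2 (limma adjusted p = 0.00239 to 0.0426). Between the controls edgeR called 1 collagen and DESeq2 2 (2.04% and 4.62% of all genes), and between the KO-labelled lines 1 and 3 (6.55% and 9.84%). Collagens also varied with replicate number. In 20 of 23 the mean of replicates 2 exceeded that of replicates 1 over the 4 lines, with a median log2 difference of 0.35, while over all genes the median was 0.00. Each line contributed 1 library to each replicate number, so this difference is balanced between the arms.

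Genes that make, export, join, sense and degrade collagen were examined as 5 lists, each read beside the same background shares. Limma called 0.107% of all genes lower and 0.128% higher between the arms. Those shares were 3.18% and 3.82% in KO-labelled line 1, and 6.67% and 4.54% in KO-labelled line 2. Between the arms edgeR called 1.33% of all genes and DESeq2 6.04%, in either direction. Of 20 tested genes for modification and folding none was called between the arms, although 19 were below 0 with a median of -0.43. An unadjusted p under 0.05 was found for 8 of them, all below 0, edgeR called 1 (P3H1) and DESeq2 5. In KO-labelled line 1 P3H1, CRTAP and SERPINH1 fell, and in KO-labelled line 2 PLOD2, PLOD3, COLGALT1, P3H1, P3H2, CRTAP and HSPA5 fell. P3H1, a prolyl 3-hydroxylase that works in a complex with CRTAP, gave 2988 and 3117 normalised read counts in control line 1, 1933 and 2104 in control line 2, 1344 and 1284 in KO-labelled line 1 and 1305 and 1638 in KO-labelled line 2. The arms did not overlap. It fell by 0.92 for KO-labelled line 1 (limma adjusted p = 0.00470, lost without either replicate of that line) and by 0.76 for KO-labelled line 2 (limma adjusted p = 0.00679). CRTAP ran from 4858 to 8292 in control and from 4172 to 4539 in KO-labelled libraries, and it was also lower in control line 2 than in control line 1 by a log2 of -0.68 (limma adjusted p = 0.0321). SERPINH1, the collagen chaperone HSP47, fell by 0.82 for KO-labelled line 1 (limma adjusted p = 0.0253). With 1 library left out, the calls of SERPINH1 were lost in 5 of 8 fits, those of CRTAP in 4 of 8 for each line, and those of PLOD3 and HSPA5 in 6 and 7 of 8, in each case without replicate 1 of the KO-labelled line compared or either replicate of control line 1.

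Some of the modifying enzymes differed between the KO-labelled lines. COLGALT1, which adds galactose to hydroxylysine, ran from 6801 to 10858 in control, was 6924 and 7356 in KO-labelled line 1, and 4154 and 3702 in KO-labelled line 2, where it fell by 1.13 (limma adjusted p = 0.00160). P3H2, a prolyl 3-hydroxylase of basement membrane collagen, ran from 4506 to 6964 in control and was 5878 and 6495, then 2579 and 2895 in the KO-labelled lines, with a fall of 1.02 for KO-labelled line 2 (limma adjusted p = 0.00207). PLOD2, the lysyl hydroxylase of collagen ends, fell by 1.17 for KO-labelled line 2 (limma adjusted p = 0.0110), a call lost without replicate 1 of that line (0.0538). In COLGALT1 and P3H2 KO-labelled line 1 lay within the control range.

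Of 15 tested genes for export and propeptide cleavage none was called between the arms (10 below 0, median -0.04). Limma gave 2 of them an unadjusted p under 0.05, edgeR called none and DESeq2 called 1, PCOLCE2. PCOLCE2, which enhances cleavage of the procollagen C-propeptide, gave 2035 and 2361 in control line 1, 983 and 1362 in control line 2, 829 and 858 in KO-labelled line 1 and 433 and 612 in KO-labelled line 2. The arms did not overlap. It fell by 0.92 (limma adjusted p = 0.0221, lost without either replicate of control line 1 or of the KO-labelled line) and by 1.63 (limma adjusted p = 0.00178). TLL2, a protease of the family that cleaves that propeptide, was 381 to 581 in control, 52.5 and 101 in KO-labelled line 1, where it fell by 2.70 (limma adjusted p = 0.00197), and 220 and 361 in KO-labelled line 2. SEC13, of the vesicle coat that carries procollagen, fell by 0.60 for KO-labelled line 1 (limma adjusted p = 0.0200). It was also lower in control line 2 (2443 and 2352) than in control line 1 (3447 and 4107), by a log2 of -0.65 (limma adjusted p = 0.0469). MIA2, which helps to load procollagen, rose by 0.66 (limma adjusted p = 0.0260). ADAMTS2, the N-propeptidase, fell by 0.53 for KO-labelled line 2 (limma adjusted p = 0.0276). Leaving out 1 library ended the calls of SEC13, MIA2 and ADAMTS2 in 3, 5 and 7 of 8 fits, in each case also without replicate 2 of control line 1.

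Crosslinking and assembly was the list with calls between the arms, 2 lower of 12 tested (LOXL3 and THBS1), with all 12 below 0 and a median of -0.60. LOXL3, a lysyl oxidase that crosslinks collagen, gave 219 and 211 in control line 1, 292 and 242 in control line 2, 31.3 and 34.2 in KO-labelled line 1 and 21.7 and 31.4 in KO-labelled line 2. Even the highest KO-labelled library was far below the lowest control (log2 change -2.99, limma adjusted p = 0.00170). DOK1 and HTRA2 overlap its exons on the other strand, so its count is uncertain if strand was not used. The same limit holds for THBS1, whose exons FSIP1 and AC037198.2 overlap on the other strand. THBS1, thrombospondin 1, a matrix protein that binds collagen, gave 4684 and 3996, then 4191 and 3399 in the control lines and 1709 and 1330, then 1972 and 2014 in the KO-labelled lines, without overlap. It fell by 1.22 (limma adjusted p = 0.0245), a call lost without either replicate of control line 1, replicate 1 of control line 2 or replicate 1 of KO-labelled line 2 (limma adjusted p up to 0.141). In KO-labelled line 1 LOX, LOXL2, LOXL3, SPARC, FN1 and THBS1 fell, and in KO-labelled line 2 LOX, LOXL3, PXDN, THBS1 and NID1 fell and FN1 rose. The calls of LOX, LOXL2 and SPARC in KO-labelled line 1 were lost without replicate 2 of control line 1 or either replicate of that line, and the call of LOX in KO-labelled line 2 was lost in 6 of 8 fits that left out 1 library. FN1, fibronectin, was 17998 and 20159 in control line 1 but 521 and 434 in control line 2, so its changes against the mean of both controls describe neither control line. POSTN showed the same split of the controls, 2073 and 1969 against 63.7 and 33.99.

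**Figure D4:**
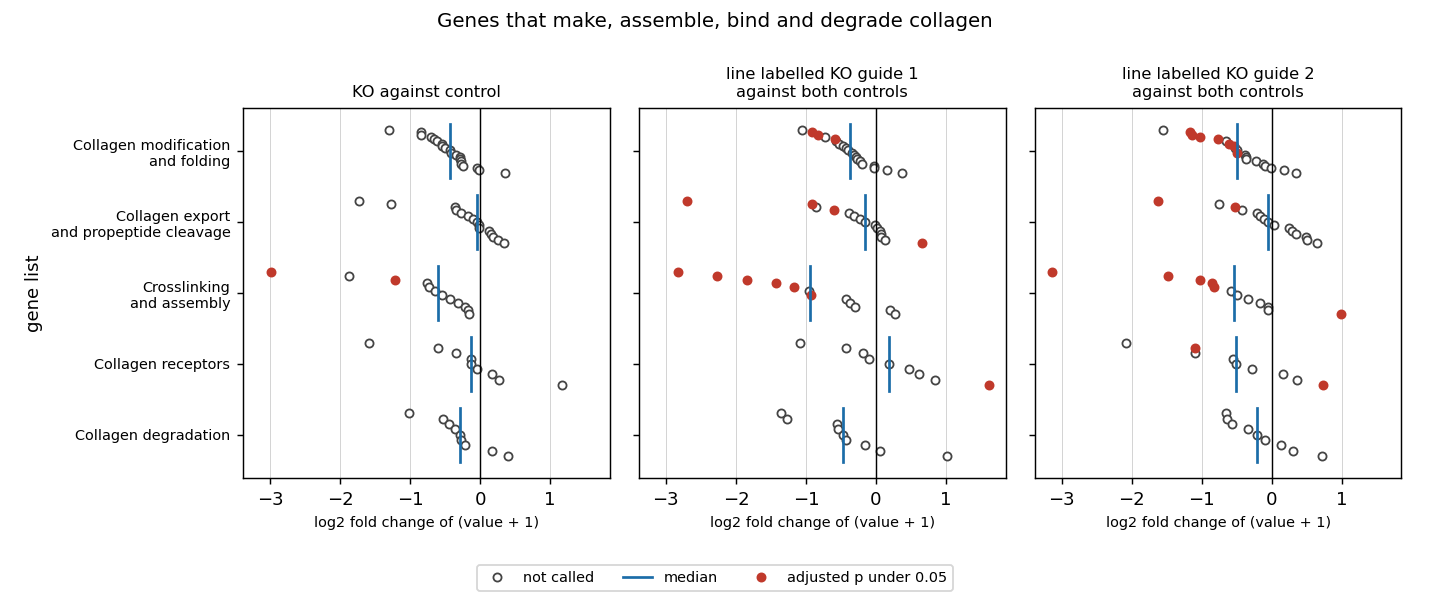
Log2 change against both control lines (horizontal axis) of the tested genes of the 5 collagen lists (rows, 1 point per gene) for both KO-labelled lines together and for each alone, with a vertical line at each list's median and filled points for limma adjusted p under 0.05. In the first panel 2 points are filled, LOXL3 at -2.99 and THBS1 at -1.22.

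Of 9 tested collagen receptors none was called by limma between the arms (6 below 0, median -0.12), where 2 had an unadjusted p under 0.05, edgeR called none and DESeq2 called 1, ADGRG6. ADGRG6, an adhesion receptor that binds type IV collagen, was 256 and 185 in control line 1, 539 and 419 in control line 2, 1088 and 892 in KO-labelled line 1 and 556 and 511 in KO-labelled line 2. It rose by 1.61 for KO-labelled line 1 (limma adjusted p = 0.00188) and by 0.73 for KO-labelled line 2 (limma adjusted p = 0.0327, lost in 6 of 8 fits that left out 1 library), and it also differed between the controls by 1.12 (limma adjusted p = 0.0346). MRC2, the receptor that takes up collagen for breakdown, ran from 4016 to 5456 in control and from 3984 to 4468 in KO-labelled line 1, and was 2020 and 2209 in KO-labelled line 2, where it fell by 1.10 (limma adjusted p = 0.00296). Of 9 tested genes of collagen degradation none was called by limma in a comparison with the controls (7 below 0 between the arms, median -0.28). An unadjusted p under 0.05 was found for 0 between the arms, 3 for KO-labelled line 1 and 2 for KO-labelled line 2, edgeR called none and DESeq2 called 2, both for KO-labelled line 2. With the replicate block limma called 4 lower for KO-labelled line 1 and 2 lower for KO-labelled line 2. MMP14, the membrane collagenase, was 11745 and 14072 in control line 1, 5438 and 6743 in control line 2 and 4817 to 7510 in KO-labelled libraries, and was lower in control line 2 than in control line 1 by a log2 of -1.09 (limma adjusted p = 0.0411). This call of MMP14, and those of CRTAP, SEC13 and ADGRG6 between the controls, were lost without any 1 control library or either library of KO-labelled line 1.

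The replicate block moved the counts of the other lists as well. In KO-labelled line 1 the genes called lower went from 3 to 12 for modification and folding and from 6 to 8 for crosslinking and assembly, and the receptors called higher from 1 to 4. The counts for export and propeptide cleavage in that line, 3 lower and 1 higher, did not move. In KO-labelled line 2 the genes called lower went from 7 to 13 for modification and folding, from 2 to 4 for export, from 5 to 7 for crosslinking and assembly and from 1 to 5 for receptors, and those called higher from 0 to 2 for export. Between the arms the block left these 4 counts at 0, 0, 2 and 0. With the block, 24.4% of all genes were called in either direction in KO-labelled line 1 and 27.4% in KO-labelled line 2. Between the arms that share was 0.264%.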

How the data were processed

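The 8 libraries of A-498 RNA were sequenced after polyA selection on an Illumina NovaSeq instrument, per the labels' protocols. The submitters' processing notes name fastp 0.23.2, HISAT2 2.2.1, featureCounts 2.0.1 and DESeq2 2.11.40.8 and the builds hg38 and GRCh38. The annotation and the strand setting of the counting are not given in the sources used here. Other genes also overlap exons of LOX, LOXL2, SPARC, CRTAP, MRC2, PLOD3, SEC13 and MIA2, so these counts are uncertain too. The deposited values are a normalised signal per gene and library on a linear scale, 1 column per library. Dividing each column by its smallest positive entry gave whole numbers for 100% of entries (largest relative deviation 8.45e-10), so the deposited signal is a whole read count divided by 1 factor, and whole reads were recovered. Depth ranged from 15784890 to 22631588 reads. Reads had no molecular identifiers, so limits cover counting error only.

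Symbols were found for 27745 of 28395 identifiers in RefSeq GRCh38.p14, which also gave promoters. The 650 others held 0.0332% of the reads. Levels per kilobase used the union of exons in GENCODE 29 (GRCh38). The main test was limma 3.58.1 (run under R 4.3.3), applied to log2-transformed values with a pseudocount of 1, which understates the change of low genes. Only genes reaching 10 in 2 or more libraries were tested. KO-labelled and control lines were compared with duplicateCorrelation over lines (0.33) and a mean-variance trend. For single lines a model with 4 line means and 1 shared estimate of spread was used. Benjamini-Hochberg adjustment covered all 14040 genes. The spread of the single-line comparisons is that between replicates of a line. The script was tested on simulated data that held no differences between lines of an arm and no pairing of replicates. That test cannot show how the fits behave where lines of an arm differ.

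Titles of the samples gave the replicate numbers. Replicate 2 minus replicate 1 correlated across genes at r = 0.285 to 0.501 in all 6 pairs of lines, above the limit of 0.1, and the numbers were taken as pairing the libraries. Results with that number as a block (the replicate block) are printed where they changed the call of a collagen or a count for a list. Other alternatives were a pseudocount of 10, no filter, TMM scaling, and edgeR 4.0.16 (quasi-likelihood) and DESeq2 1.42.0 on recovered reads. Between the arms, edgeR and DESeq2 had no line term. Further ones were 1 mean per line, tested against the spread between replicates of a line, and leaving out each library in turn. Replicates within each line differed far beyond counting noise (chi-square per degree of freedom 18.9 to 73.3). The rule for names was ANXA4, every tested collagen by type, and from each pathway list the genes called between the arms, otherwise up to 6 called for a line by the smallest adjusted p. LOX, LOXL2, SPARC, FN1, PXDN, NID1, PLOD3, HSPA5, POSTN and the marker genes fall outside it and were named after their values were seen. The collagens, the lists and the tests were chosen with earlier results of these data known.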

Additional observations from a re-analysis of the deposited data

Results flagged for a closer look

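Of 46 sets of 4 libraries checked for a library far from the other 3, 2 were singled out, where chance gives about 1 in 20. In the controls COL12A1 was highest in replicate 2 of control line 1 (2873, the others 2210 to 2323), and without that library its log2 change was -1.61 and still called. COL20A1 was lowest in the same library (18.7, the others 21.5 to 22.1).

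Differences between the KO-labelled lines, called by limma, were also singled out (line 2 minus line 1, log2 scale). COL1A1 was higher for KO-labelled line 2 by 1.25 and TLL2 by 1.94. Lower for KO-labelled line 2 were COLGALT1 by -0.86, P3H2 by -1.18, MIA2 by -0.63, ADGRG6 by -0.89, MRC2 by -0.998, ADGRG1 by -1.02 and ITGA1 by -0.89. ADGRG1, a receptor for type III collagen, gave 9667 and 11237 normalised read counts for KO-labelled line 1 and 5904 and 4456 for KO-labelled line 2, with 6295 to 9245 in the controls. ITGA1, a collagen-binding integrin chain, gave 503 and 633 for KO-labelled line 1, 283 and 327 for KO-labelled line 2 and 332 to 400 in the controls. PELO overlaps exons of ITGA1 on the same strand, so its count is uncertain.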

How the results depend on the processing

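Between the arms 33 genes were called, 71 with no filter, 187 with edgeR, 848 with DESeq2, 1474 with 1 mean per line and 7 to 39 with 1 library left out. Collagens called were 1, against 4 with no filter, 2 with the replicate block, 5 with edgeR, 11 with DESeq2, 11 with 1 mean per line and 1 to 2 with 1 library left out (the second was COL8A1 without replicate 2 of KO-labelled line 1). For KO-labelled line 1 the genes called went from 984 to 3432 with the replicate block and to 148 to 1324 with 1 library left out, and the collagens from 9 to 14 and to 3 to 9. For KO-labelled line 2 the genes went from 1573 to 3851 with the replicate block and to 814 to 1360 with 1 library left out, and the collagens from 9 to 5 to 10 with 1 library left out. Between the controls the genes went from 299 to 183 with no filter, 1752 with the replicate block, 649 with DESeq2 and 43 to 410 with 1 library left out, and the collagens from 1 to 2 with a pseudocount of 10, 5 with the replicate block, 2 with DESeq2 and 0 to 1 with 1 library left out. Between the KO-labelled lines the genes went from 975 to 3442 with the replicate block and 87 to 998 with 1 library left out, and the collagens from 1 to 6 with the replicate block, 3 with DESeq2 and 0 to 2 with 1 library left out. The exact test of COL12A1 gave p = 0.0286 and, permuting within the replicate block, p = 0.0556. With lines as units, chosen after seeing the data, the exact permutation test gave p = 0.333. The replicate block changed no call of a collagen other than those printed with it. Leaving out a library leaves 1 in its line, assumed to vary like the other lines. When 1 KO-labelled line is compared with the controls, leaving out a library of the other KO-labelled line cannot move the log2 change. Such fits change only the spread and the adjustment, so they are no check of that change.

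The sign of the log2 change between the arms reversed for genes near 0. With 1 library left out it ranged from -0.23 to 0.14 for COL4A5, -0.51 to 0.18 for COL4A6, -0.026 to 0.31 for COL16A1, -0.33 to 0.16 for COL24A1, -0.15 to 0.11 for COL27A1, -0.22 to 0.14 for ADGRG1 and -0.010 to 0.28 for ITGA1. With edgeR it was 0.055 for COL24A1 and 0.038 for ADGRG1, and with DESeq2 0.066 and 0.038. The cause of these differences was not tested. TMM scaling moved no collagen count by over 1.5 times. Collagens under the filter, with at most 15.6 normalised read counts, are limited by depth.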
